A study of Mus musculus with 2 samples.

Results

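The 32 genes described here encode the machinery of autophagy and of degradation in the lysosome. They were chosen by name: a gene belonged if its name in the scanner files was on a list of autophagy and lysosomal degradation genes. All 32 were on the array and all 32 had at least 1 probe well above background on both arrays, out of 12510 named genes measured that way and 24082 named genes on the array. None of the 32 was 2-fold higher or lower in the N2ICD muscle. Most lay slightly above 0 (25 of 32, against 50.5% of all genes), led by Rb1cc1, Uvrag, Atg10, Ulk2 and Tfeb, while the cathepsin Ctsb was the lowest.

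The tissue was tibialis anterior, the muscle along the front of the shin, from adult male mice on a C57BL/6 background. There were 2 arrays. The control group was 1 muscle sample whose genotype is labelled control, and the N2ICD group was 1 muscle sample from a mouse transgenic for activated Notch2 (called N2ICD-mTG in the labels), where N2ICD is the intracellular part of the receptor that acts in the nucleus. What drives the transgene, which alleles the control mouse carried, and whether RNA came from 1 animal or a pool are not given in the sources used here. With 1 array per group there was no replicate check and no test, and genotype, animal, dissection and array cannot be told apart. The number of arrays limits the precision.

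Macroautophagy wraps cytoplasm in a double membrane and delivers it to the lysosome. A kinase complex around Ulk1 and Ulk2 starts the process, a class III PI3-kinase complex around Becn1 marks the membrane with the lipid PI3P, and ubiquitin-like conjugation reactions attach proteins of the Atg8 family (LC3 and GABARAP) to it. Receptors bind cargo to the Atg8 proteins, and lysosomal enzymes break the cargo down. In skeletal muscle the pathway is known for its part in fasting, denervation and the removal of damaged mitochondria, and loss of the glycogen-degrading lysosomal enzyme Gaa causes Pompe disease.

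Signals are given as scaled signals, that is, the processed spot signal divided by the 75th percentile of its array, which was 169 in control and 190 in N2ICD. Differences are log2 differences, N2ICD minus control. A gene read by several probes has the mean over its probes that were well above background on both arrays. For comparison, spots of the same probe differed by an SD of 0.23 on this scale in the dimmest of 4 level groups, 0.12 and 0.077 in the middle groups and 0.055 in the brightest, over 251 probes printed several times. The scanner software's own error estimate was larger, at 0.20 for the difference of a bright spot. Both describe the spots.

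Of the 32 genes, 0 were at least 2-fold higher, where 1.45% of all genes were, and 0 were at least 2-fold lower, where 0.911% of all genes were. At 1.5-fold, 2 members were higher against 5.17% of all genes, and 0 were lower against 4.74%. Members above 0 numbered 25 (78.1%), against 50.5% of all genes, and 7 lay below 0. The median over the members was 0.11, against 0.0040 over all genes, with the middle 50% of members between 0.020 and 0.21. Differences larger than 2 SD of the spot noise at the gene's level were seen upward in 15 members (46.9%, against 23.4% of all genes) and downward in 2 (6.25%, against 20.3%). That bar is lower for brighter genes, and the members were brighter. The brightest level group held 16 of the 32 members and 3376 of the 12510 genes, and the dimmest 2 and 3815. These shares are therefore not like for like. Against the larger software error, averaged over a gene's probes, 4 members (Rb1cc1, Uvrag, Atg10 and Ulk2; 12.5%, against 8.54% of all genes) were higher by more than 2 errors and 0 were lower by as much, against 7.48% of all genes. Neither error holds the spread between animals. By level, the medians of members and of all genes were 0.13 and 0.045 in the brightest group (16 members), 0.073 and 0.011 in the next (8 members), 0.018 and -0.0050 in the next (6 members) and 0.78 and -0.055 in the dimmest (2 members, Rb1cc1 and Atg10). Of the 32 genes, 27 lay within 0.3 of 0 on the log2 scale. The share of all genes within that band was not computed. The middle 50% of all genes lay between -0.19 and 0.19. The SD of differences was 0.25 over the members and 0.38 over all genes. The spread was thus narrower over the members, but the 2 groups were not matched for level.

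**Figure D1:**
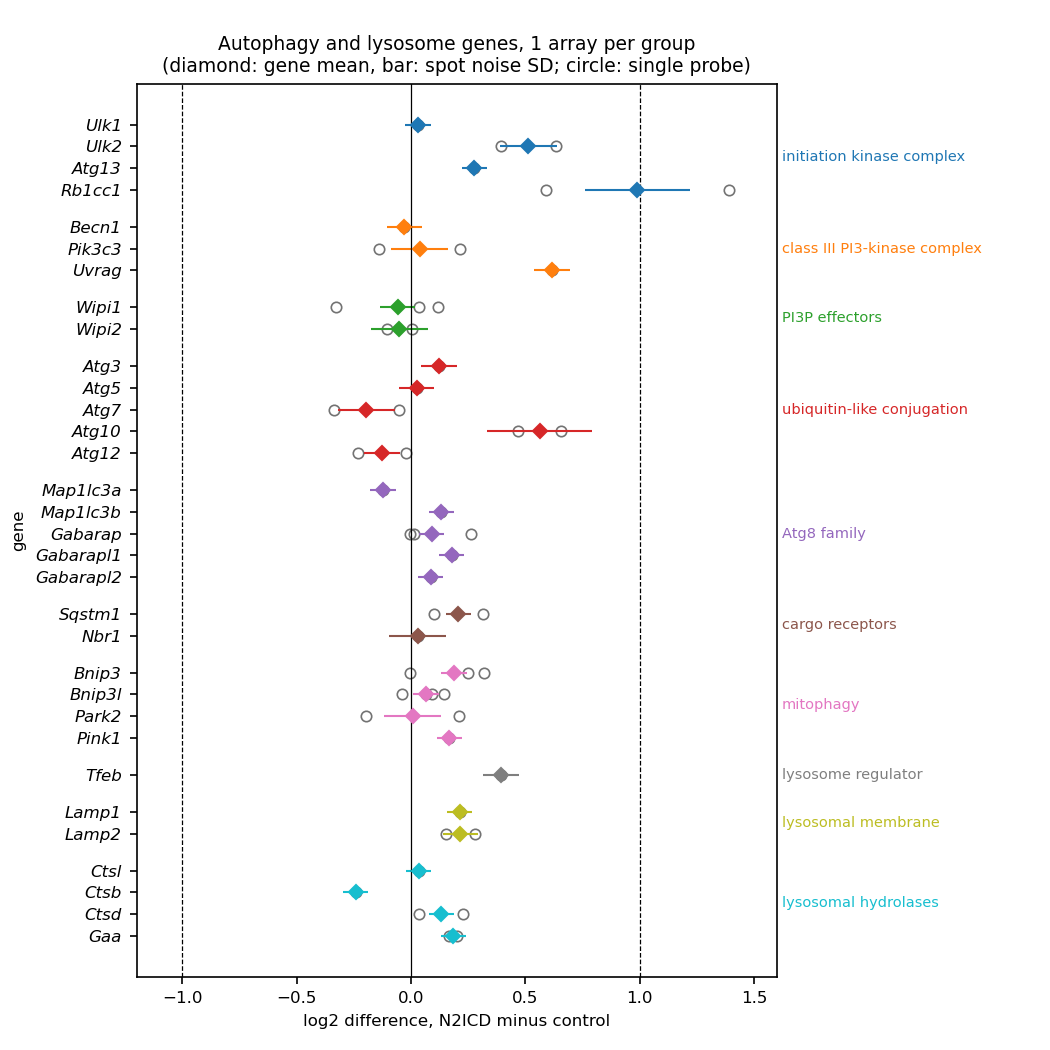
Log2 difference, N2ICD minus control, of the 32 genes in order of their role; diamonds are gene means, horizontal bars the SD of spot noise at that level, open circles single probes, and dashed lines 2-fold. Most diamonds sit between -0.25 and 0.28, and Rb1cc1 lies just inside the 2-fold line with its 2 probes at 0.59 and 1.39.

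In the initiation kinase complex, Rb1cc1 and Ulk2 ranked 1 and 4 of the 32 genes, with Uvrag and Atg10 of other groups between them, and Ulk1 ranked 22. Rb1cc1, also known as FIP200, is the scaffold that binds the Ulk kinases. Its difference of 0.99, or 1.99-fold, was the largest of the 32 and stood at percentile 98.5 of all genes. That percentile is over genes of every level. In the dimmest level group, which holds Rb1cc1, the SD of differences over all genes was 0.45, against 0.32 in the brightest. Rb1cc1 was read at 2 sites on chromosome 1 (mm9, plus strand). The first 30 bases of each probe are shown because the sites gave unequal values.

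Rb1cc1, transcript position 4843: aagaaaacaagcggttaaatcaaagactga

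Rb1cc1, transcript position 6294: gaacaaagatattgaagtagctaggctagt

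The probe at position 4843 (6255674 to 6258809) covers 3136 genomic bases with 60 bases of probe, so it lies across an exon junction. Its scaled signal was 0.257 in control and 0.387 in N2ICD, a difference of 0.59. The probe at position 6294 (6265434 to 6265493) read 0.278 in control and 0.728 in N2ICD, a difference of 1.39. Both sites were higher in the N2ICD array, and the downstream one alone passed 2-fold. Whether either site is coding or untranslated was not determined. These were among the dimmest spots of the set, and the lowest signal well above background was 0.150 on the control array. The software's error for the difference was 0.33 and 0.27 at these sites. With normexp background correction and an added offset of 50 the gene's difference was 0.48.

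Ulk2, a kinase close to Ulk1, was higher at both of its sites. One read 2.30 in control and 3.56 in N2ICD and the other 1.59 and 2.09, for differences of 0.63 and 0.40 and a gene mean of 0.51. Ulk1, the kinase usually named as the starter of autophagy, read 51.2 and 52.3, a difference of 0.031 that is within the spot noise and was -0.014 after loess on level. Atg13, which links the kinases to the complex, read 21.0 and 25.4, a difference of 0.28. All 4 genes of the complex were thus above 0, with Ulk1 nearest to it. Of the 14 other genes fixed for initiation and PI3P formation, 13 were measured, 10 were above 0 and none passed 1.5-fold. Their median was 0.076. The 3 with the largest differences were the PI3P-binding Wdr45 at 0.34, its relative Wdr45b at -0.27 and the membrane protein Atg9a at -0.25.

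In the class III PI3-kinase complex, Uvrag had a far larger difference than the other members. Uvrag, a Becn1 partner that acts in autophagosome maturation and endosomal traffic, read 4.04 in control and 6.18 in N2ICD at its single site (chromosome 7, 106035448 to 106035507, mm9), a difference of 0.62 or 1.53-fold. Becn1 read 3.03 and 2.97, a difference of -0.029 that became 0.041 with median scaling. That scaling adds 1 constant to every gene and put the median of all genes at 0.073. Pik3c3, the catalytic lipid kinase, averaged 0.037 over 2 probes of opposite sign, at 0.21 and -0.14. The PI3P effectors Wipi1 and Wipi2, which recruit the conjugation machinery, were at -0.058 and -0.051, and at 0.011 and 0.019 with median scaling. Wipi1 hid a spread between sites, from -0.33 to 0.12 over 3 probes.

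Among the conjugation enzymes, Atg10 stood apart. Atg10 is the E2-like enzyme that joins Atg12 to Atg5. Its 2 probes, which lie far apart in the gene on chromosome 13, read 1.05 and 0.367 in control and 1.46 and 0.578 in N2ICD, for differences of 0.47 and 0.65 and a mean of 0.56. With normexp and the same offset it was 0.30. Of the substrates of the reaction, Atg5 was at 0.025, or -0.0023 after quantile normalization, and Atg12 at -0.13 over probes at -0.023 and -0.23. Atg7, the E1-like enzyme that serves both conjugation systems, was lower at both sites (-0.34 and -0.054, mean -0.19). Atg3, the E2-like enzyme for the Atg8 proteins, was at 0.12. Of the 5 enzymes and substrates, 3 were above 0 and 2 below. Of the 6 related genes fixed beside them 5 were measured, with a median of 0.14. Atg16l2 led at 0.44 from a dim probe that read 0.367 and 0.499. Atg4c, which cuts Atg8 proteins, was at 0.17 and Atg16l1 at -0.16.

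The Atg8 family differed little. Map1lc3b, the LC3 form most used as an autophagosome marker, was printed in 10 spots per array. Its scaled signal was 63.1 in control and 69.1 in N2ICD, and the difference was 0.13 ± 0.030 (SD over 10 spots of 1 probe). The mean difference was larger than that spot-to-spot SD and smaller than the software's own error. Map1lc3a went the other way, at 50.5 and 46.4, a difference of -0.12. Gabarapl1, known as a FoxO-responsive gene in muscle, read 50.6 and 57.2, a difference of 0.18. Gabarapl2 read 41.2 and 43.7 (0.086). The 2 bright probes of Gabarap were at 0.012 and -0.0050, and the dim probe, at a scaled signal of 0.327 in control, raised the gene mean to 0.090, so that the brightest probe alone puts Gabarap below 0. Thus 4 of 5 family members were above 0, by 0.18 or less.

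Cargo receptors were at or slightly above 0. Sqstm1 (p62), which carries ubiquitin-tagged cargo and is itself degraded by autophagy, was at 0.10 at its bright site (46.5 and 49.9) and at 0.31 at the dimmer one (1.65 and 2.05), with a mean of 0.21. Nbr1, a receptor related to it, read 1.08 and 1.10, a difference of 0.029. The 9 other receptors fixed for the comparison were all measured, with a median of 0.081. Of these, Tax1bp1 was at 0.39, the mitochondrial receptor Bcl2l13 at 0.24 and Tollip at -0.19.

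Genes of mitophagy, the removal of mitochondria, were all above 0 by gene mean and all within 0.19 of it. Pink1, the kinase that marks damaged mitochondria, read 129 in control and 145 in N2ICD, a difference of 0.17. Park2 (parkin), the ubiquitin ligase it acts on, had probes at 0.21 and -0.20 that averaged 0.0070, and its brighter probe alone was the lower one. Bnip3, a receptor on the outer mitochondrial membrane, was at 0.25 and 0.32 at its bright sites (80.2 and 95.3, 64.0 and 79.9) and at -0.0036 at the dimmest. Bnip3l (Nix) was read at 4 sites between -0.040 and 0.14, with a mean of 0.066. The probes agreed in sign for neither Park2, Bnip3 nor Bnip3l.

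Over the whole set, 16 of the 32 genes had several measured probes. In 7 of them all probes were above 0, in 2 all were below, and in 7 the signs differed. The matching shares over all genes were not computed, so these counts show nothing particular to the set. The SD between measured probes of a gene was 0.25 over all 3125 genes that had several. A gene mean inside that range is no firmer than the choice of probes, and 16 members rest on 1 measured probe.

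**Figure D2:**
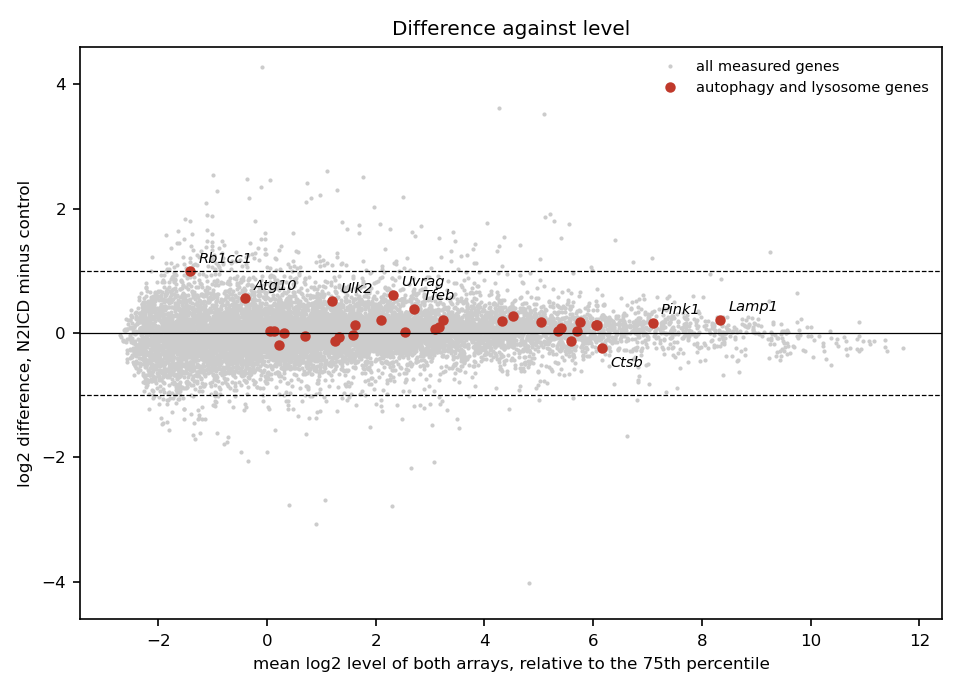
Log2 difference, N2ICD minus control, against mean log2 level of both arrays for the 12510 measured genes (grey) and the 32 genes (red); dashed lines mark 2-fold. The members past 0.3 (Rb1cc1, Atg10, Ulk2, Uvrag, Tfeb) lie at low or middle level, and the 16 members in the brightest level group lie between -0.24 and 0.28.

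Tfeb, the transcription factor that drives lysosomal and autophagy genes, read 5.66 in control and 7.43 in N2ICD at its single site (chromosome 17, 47929089 to 47929148, mm9), a difference of 0.39 or 1.31-fold. It stood at percentile 89.2 of all genes. Of the 15 upstream regulators fixed beside it, 14 were measured, 11 lay above 0 and none passed 1.5-fold. Their median was 0.16. Fnip1, a partner of folliculin in nutrient sensing, was at 0.55. Tsc2 and Tsc1, which together restrain mTORC1, were at 0.53 and 0.45, Tsc2 from a dim probe reading 0.235 and 0.340. Foxo1, a FoxO factor of muscle atrophy, was at 0.39, and Foxo3 was not well above background in control or N2ICD. The Tfeb relatives Tfe3 and Mitf were at 0.089 and -0.13.

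Tfeb and its relatives bind an E-box, CACGTG, and a longer form of it, TCACGTGA, is the core of the lysosomal CLEAR element. Both motifs read the same on both strands, and each TCACGTGA holds a CACGTG. RefSeq promoter windows (GRCm38.p6, 250 bases before to 50 after the start of the gene) were matched for 24 of the 32 genes. CACGTG was found in 8 of these (33.3%), against 8.09% of all 27025 genes with a window and 7.15% of all windows. TCACGTGA was found in 2, Atg3 and Ctsd, against 1.12% of all genes and 0.974% of all windows. Those shares include genes not measured here, while all members were measured. Of measured genes with a window, 1052 held CACGTG and 7858 did not, and 199 held TCACGTGA and 8711 did not. The motifs were thus more frequent among measured genes than among all genes. The 3 stretches below hold the most copies, with each CACGTG in capitals.

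Lamp1, chr8:13159085-13159160, plus strand: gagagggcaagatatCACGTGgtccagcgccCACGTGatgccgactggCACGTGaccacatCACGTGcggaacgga

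Ctsd, chr7:142387905-142388077, minus strand: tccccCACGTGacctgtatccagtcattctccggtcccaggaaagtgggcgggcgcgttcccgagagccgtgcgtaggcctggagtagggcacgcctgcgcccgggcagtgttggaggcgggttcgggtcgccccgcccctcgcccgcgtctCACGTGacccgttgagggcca

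Atg3, chr16:45158720-45158778, plus strand: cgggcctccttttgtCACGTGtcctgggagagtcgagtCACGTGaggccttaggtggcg

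Lamp1 carries 4 copies within 61 bases of its start, and the other 2 genes carry 2 each. The 5 other members with a CACGTG were Atg5, Atg7, Bnip3, Ctsl and Gaa, with 1 copy each. A match describes these letters and shows no binding. The 8 members with the motif had differences from -0.19 to 0.21 (median 0.13), and the 16 members whose window lacked it had differences from -0.058 to 0.62 (median 0.17). The windows of Uvrag, Atg10, Ulk2 and Tfeb itself, 4 of the 5 members past 0.3, held no CACGTG, and Rb1cc1 had no window here. Most windows lack the motif, as 7858 measured genes did against 1052 that held it, so this count shows nothing particular to those 4.

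The lysosomal membrane proteins Lamp1 and Lamp2 were close to each other. Lamp1, the most abundant glycoprotein of that membrane together with Lamp2, read 300.2 in control and 348 in N2ICD, a difference of 0.21. Lamp2, needed for fusion with autophagosomes, was at 0.15 and 0.28 at its 2 sites, with a mean of 0.22. The hydrolases among the members split. Gaa, the acid alpha-glucosidase, was higher at both measured sites (4.63 and 5.20, 205 and 235), with a mean of 0.19, and its other probe was not well above background in either muscle. Ctsd, an aspartic protease, was at 0.23 at its brighter site (164 and 192) and 0.036 at the other, with a mean of 0.13. Ctsl, a cysteine protease known to be raised in muscle atrophy, read 40.4 and 41.4, a difference of 0.034, or -0.011 after loess on level. Ctsb, a cysteine protease common in many cell types, read 78.2 in control and 66.2 in N2ICD at its site on chromosome 14 (63761906 to 63761965, mm9). Its difference of -0.24 was the lowest of the 32, at percentile 20.1 of all genes.

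Among the wider lysosomal hydrolases and cofactors, more genes lay below 0 than above it. Of 31 fixed for comparison 28 were measured, 10 were above 0 and 18 below, and the median was -0.041, or 0.029 with median scaling. Median scaling put the median of all genes at 0.073, so the hydrolases stayed below it. The lowest of these hydrolases was cathepsin K (Ctsk), a matrix-degrading protease, which read 11.3 in control and 7.20 in N2ICD (-0.65). The lipase Lipa was at -0.50 and the mannosidase Man2b1 at -0.42. The other lysosomal membrane and sorting genes had a median of 0.038 over 16, led by the cholesterol transporter Npc1 at 0.50 and the tetraspanin Cd63 at 0.37, with the mannose phosphate enzyme Gnptab at 0.31. The 16 subunits of the vacuolar proton pump, which acidifies the lysosome, had a median of 0.040, with 9 above 0. Atp6v1g1 was at 0.48 (51.7 and 72.2), Atp6v1h at 0.46 and the membrane subunit Atp6v0c at -0.21. Genes of fusion and trafficking had a median of -0.027 over 14 with 4 above 0 (0.043 with median scaling and 0.00053 with normexp), and were led by Fyco1, an adaptor that moves autophagosomes along microtubules, at 0.47. The next were Vps39 at -0.18 and Stx17, the autophagosomal SNARE, at 0.17. Over all 115 measured genes of these 8 lists, 63 were above 0, the median was 0.037 and 0 passed 2-fold, with Ctsk the only one past 1.5-fold.

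**Figure D3:**
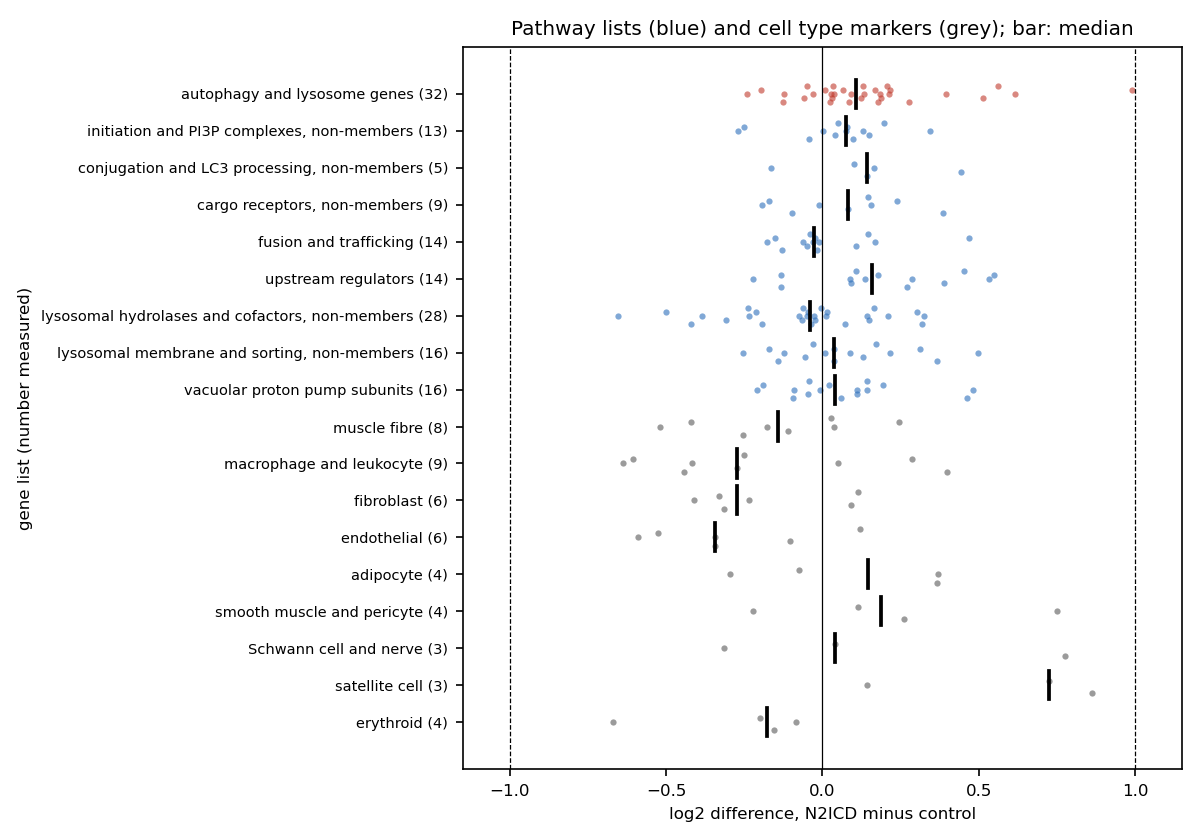
Log2 difference, N2ICD minus control, of each measured gene in the 32-gene set (red), 8 pathway lists (blue) and 9 cell type marker lists (grey); black bars are list medians and dashed lines mark 2-fold. The 32 genes have a median of 0.11 and the hydrolases outside the set -0.041. Macrophage and fibroblast markers each have a median of -0.27 and endothelial markers -0.34. The adipocyte, smooth muscle, Schwann cell and satellite cell lists have medians above 0.

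Lysosomal hydrolases are made by macrophages and fibroblasts as well as by muscle fibres, and in a bulk sample fewer cells of a type and less RNA per cell cannot be told apart. The labelled tissue showed in its fibre markers, all 8 of which were measured, from Ckm at -0.52 to Ttn at 0.25. Of these fibre markers 5 lay below 0, with a median of -0.14 and their scaled signals summed to 11901 (control) and 10313 (N2ICD). Of 11 macrophage and leukocyte markers 9 were measured and 6 lay below 0, from Aif1 at -0.64 to Lyz2 at 0.40. Their median was -0.27, and their summed scaled signal was 11.3 in control and 8.82 in N2ICD. The defining markers Ptprc and Cd163 were not well above background in either muscle. Of 6 fibroblast markers 4 lay below 0, from Col1a1 at -0.41 to Pdgfra at 0.11, with a median of -0.27 and sums of 594 and 482. Of 6 endothelial markers 5 lay below 0, from Emcn at -0.59 to Pecam1 at 0.12, with a median of -0.34 and sums of 34.7 and 27.3. The medians of the fibre, macrophage, fibroblast, endothelial and erythroid lists were below 0, the last at -0.18. Ctsb was at -0.24 and Ctsk at -0.65. Of the 28 hydrolases and cofactors measured outside the set, 18 lay below 0 and 10 above. The highest of them were Lgmn and Hexa, each at 0.32. The part of these cell types in those differences was not tested. Erythroid markers ran from Slc4a1 at -0.67 to Hba-a1 at -0.083. Adipocyte markers ran from Plin1 at -0.30 to Cidec at 0.37, smooth muscle and pericyte markers from Acta2 at -0.22 to Cspg4 at 0.75, Schwann cell and nerve markers from Sox10 at -0.32 to S100b at 0.78, and satellite cell markers from Pax7 at 0.14 to Sdc4 at 0.86.

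The size of these values depended on the scale. Centring on the spike-in controls moved the median of all genes up by 0.48 and put all 32 genes above 0, from 0.24 for Ctsb to 1.47 for Rb1cc1. On that scale 97.2% of the genes past 2-fold were higher, against 61.5% on the main scale. That scale adds 1 constant to every gene, so it moves each direction count and leaves distances between genes as they were. Median scaling does the same with a smaller constant, 0.069. The directions given here are therefore relative to the typical gene.

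**Figure D4:**
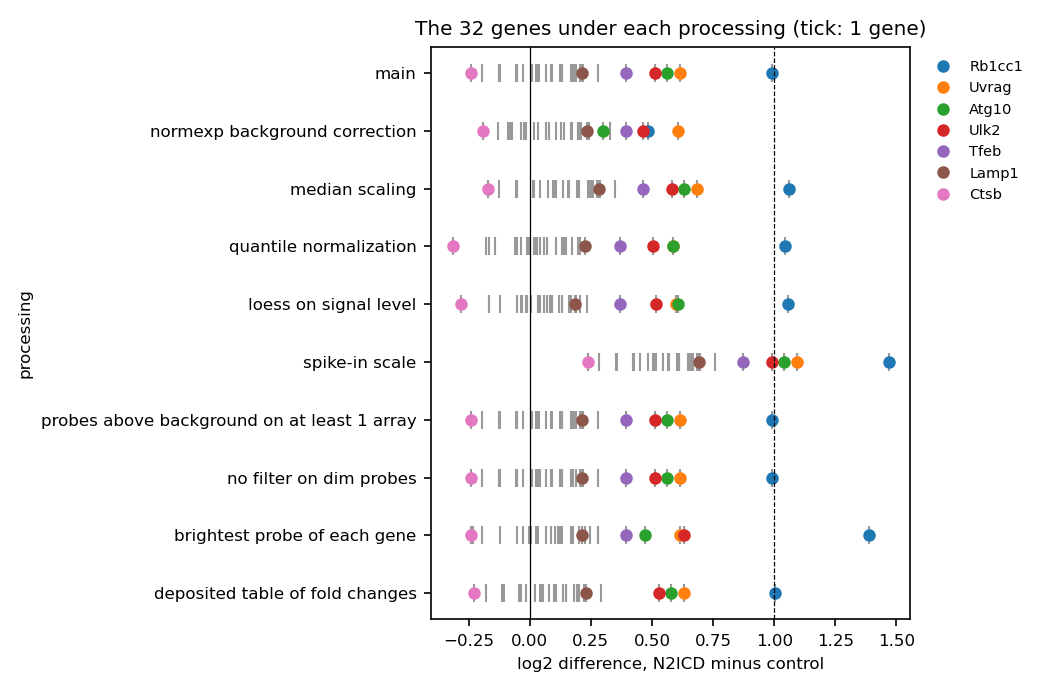
Log2 difference, N2ICD minus control, of the 32 genes (grey ticks) under the main processing and 9 alternatives, with 7 genes as coloured points; the dashed line marks 2-fold. Rb1cc1 falls from 0.99 to 0.48 with normexp, Uvrag stays between 0.59 and 0.69 outside the spike-in scale, and that scale shifts every gene up; Tfeb has no value in the deposited table.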

How the data were processed

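Total RNA of tibialis anterior muscle (1 control and 1 N2ICD sample) was labelled with Cy3 and hybridised to 1 array each, per the labels' protocols. Per the file headers, the authors read spot intensity with Feature Extraction 10.10.1.1 from Agilent, and its processed signal, used here, has had background taken off. The same headers place probes on mm9. The authors' deposited table gives an unsigned fold (ratio) with a direction, an intensity and a normalized log2 value per probe. Its making is not described in the sources read, and it served as an alternative. It listed values for 31 of the 32 genes.

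The log2 processed signal was reduced by the 75th percentile of its array, taken over the 59305 non-control spots. Spots flagged as outliers (215) were left out, spots of a probe were averaged, and probes well above background in both samples were averaged per gene. Of the spots, 24916 (control) and 24982 (N2ICD) were well above background and 0 were saturated. Genes carry the names in the files, so older names such as Park2 are kept. Rules of size (2-fold, 1.5-fold) replaced tests. All 32 genes were named, with the 3 largest absolute differences of each pathway list and the ends of each marker list; other genes were named after their values were seen. The members and lists were chosen with earlier results of these data known. A planned comparison of Atg8 family proteins was not made. The steps were tested on simulated data whose known differences were larger than those of the 32 genes. That test does not cover differences as small as theirs. Scripts ran in R 4.3.3 with limma 3.58.1 and in Python 3.11.15 with pandas 2.3.3, numpy 2.4.6 and matplotlib 3.10.9.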

Additional observations from a re-analysis of the deposited data

How the results depend on the processing

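The median of the 32 genes stayed between 0.064 and 0.18 under 8 of 9 alternatives and was 0.58 on the spike-in scale (7 E1A probes), which shifts all genes alike. Median scaling also shifts all genes alike, by 0.069. The count of genes at least 2-fold higher was 0 in the main setting. It became 1 (Rb1cc1) with median scaling, quantile normalization, loess on level, the brightest probe of each gene and the authors' deposited table, 3 on the spike-in scale and 2 at a 1.5-fold threshold. It was 0 with normexp, with looser or no filters on dim probes and at 4-fold. The count at least 2-fold lower was 0 in every setting run. Of the 25 genes above 0, 20 were above 0 in every setting, and of the 7 below 0, 4 were below 0 in all but the spike-in scale. Rb1cc1 was 1.39 with its brightest probe, which is the value of the probe at position 6294 alone. It was 0.48 with normexp, which also added an offset of 50, and the cause of that lower value was not tested. Over all genes, 182 were 2-fold higher and 114 lower in the main setting, against 77 and 41 with normexp, 334 and 307 with probes above background on at least 1 array, 720 and 812 with no filter, and 831 and 24 on the spike-in scale. No paired analysis was possible because each group holds 1 sample, and no sample could be left out.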

Other observations

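Across all measured genes with a RefSeq promoter window, the 199 genes whose window held TCACGTGA had a median log2 difference of 0.080, against 0.0040 for the 8711 without it, and 64.8% of them were above 0 against 50.5%. The distance between the medians was 0.076. It was 0.064 with normexp, 0.078 after loess on level, 0.070 with quantile normalization and 0.15 with no filter on dim probes. With no filter the median was 0.072 with the motif and -0.081 without it, so the genes with the motif were no higher than before. For the shorter CACGTG the 1052 genes with it had a median of 0.022 and the 7858 without it 0.0041, a distance of 0.018. These are values across genes in 2 arrays, and genes are not replicates, so no test was made.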
